A study of Rattus norvegicus with 16 samples.

Results

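Fatty acid uptake and oxidation was described in the infarct zone of rat hearts through 34 listed genes, chosen by name from the deposited count and TPM tables. Of these, 33 had a row among the 17085 genes of the tables and all 33 passed the filter on low counts, which 11376 genes passed. Acot1 was not analysed here. Bulk RNA sequencing covered 16 libraries in 4 groups of 4. MI rats underwent ligation of the left anterior descending (LAD) artery, MI_soft rats ligation and a soft hydrogel, MI_stiff rats ligation and a stiff hydrogel, and Sham rats served as surgical controls. All 4 groups were sampled as infarct zone, which in Sham rats is uninjured heart muscle. Strain, age, hydrogel composition and time after surgery are not in the labels. The RNA protocol names a group MI/R, and reperfusion is not otherwise mentioned. Separate animals are not stated for the replicates either, so each p-value reflects only how far these libraries spread, which may be technical.

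The adult heart takes most of its energy from fatty acids. Lipoprotein lipase frees them from circulating triglyceride, surface and intracellular carriers bring them in, and acyl-CoA synthetase traps them as acyl-CoA. The carnitine shuttle carries the acyl group into mitochondria, where repeated rounds of dehydrogenation, hydration, dehydrogenation and thiolysis shorten it, and the electron transfer flavoprotein passes its electrons to the respiratory chain. The nuclear receptor PPAR-alpha, encoded by Ppara, drives many of these genes, and infarcted and failing myocardium is known for lower expression of the pathway.

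Libraries held 10940685 to 14456186 counts. Fewer genes had a count in MI 2, MI 3, MI 4 and MI_soft 4 (10470 to 11785) than in the other 12 libraries (12019 to 12820). MI 1 stood apart within its group, with a summed TPM of skeletal muscle markers of 2401, against 55.6 to 109 in MI 2 to 4; it was 59.9 to 359 in MI_soft, 14.8 to 41.5 in MI_stiff and 1.84 to 3.46 in Sham. Skeletal muscle also oxidises fatty acids, and its part in the values of MI 1 was not tested; results that turn on MI 1 are also given without it. Of 12 contractile markers of cardiomyocytes, 10 had a row, and their summed TPM was 15921 to 28070 in MI, 23544 to 32429 in MI_soft, 14628 to 28894 in MI_stiff and 30734 to 47370 in Sham. The labelled heart tissue was thus present in every library, although Myl2, the ventricular myosin light chain, had only 23.3 ± 7.92 CPM in MI and 17.95 ± 5.72 CPM in Sham (mean ± SD, n = 4 each). Levels are CPM, counts scaled to library size with TMM factors, unless TPM (transcripts per length and depth) is named. A log2 change is the first named group minus Sham unless another is named, with the standard error of the fit. A gene is called at an adjusted p under 0.05 in edgeR's quasi-likelihood test over all 11376 genes, and "fell" is used only of called genes.

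Most of the listed genes were lower in every infarct group than in Sham. In MI, 25 of the 33 genes fell and 0 rose, where 16.4% of all tested genes were called lower and 20.2% higher. MI_soft had 25 genes lower and 0 higher, beside 9.71% and 16.4% of all genes, and MI_stiff had 23 lower and 0 higher, beside 8.44% and 12.7%. The median log2 change of the 33 genes was -1.38 in MI, -1.12 in MI_soft and -1.05 in MI_stiff, against 0.06, 0.01 and 0.02 over all tested genes. These 3 comparisons share the Sham libraries. Without the 4 libraries of low detection 27, 27 and 28 genes were lower, with MI represented by MI 1 alone and assumed to vary like the other groups. In the same comparisons 8, 5 and 9 of the 10 contractile markers were called lower, and in bulk tissue fewer cardiomyocytes and less RNA per cardiomyocyte cannot be told apart. By contrast, 8 of 8 fibroblast markers were called higher in MI, 7 of 8 in MI_soft and 7 of 8 in MI_stiff, and for macrophage markers 7, 8 and 8 of 8.

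**Figure D1:**
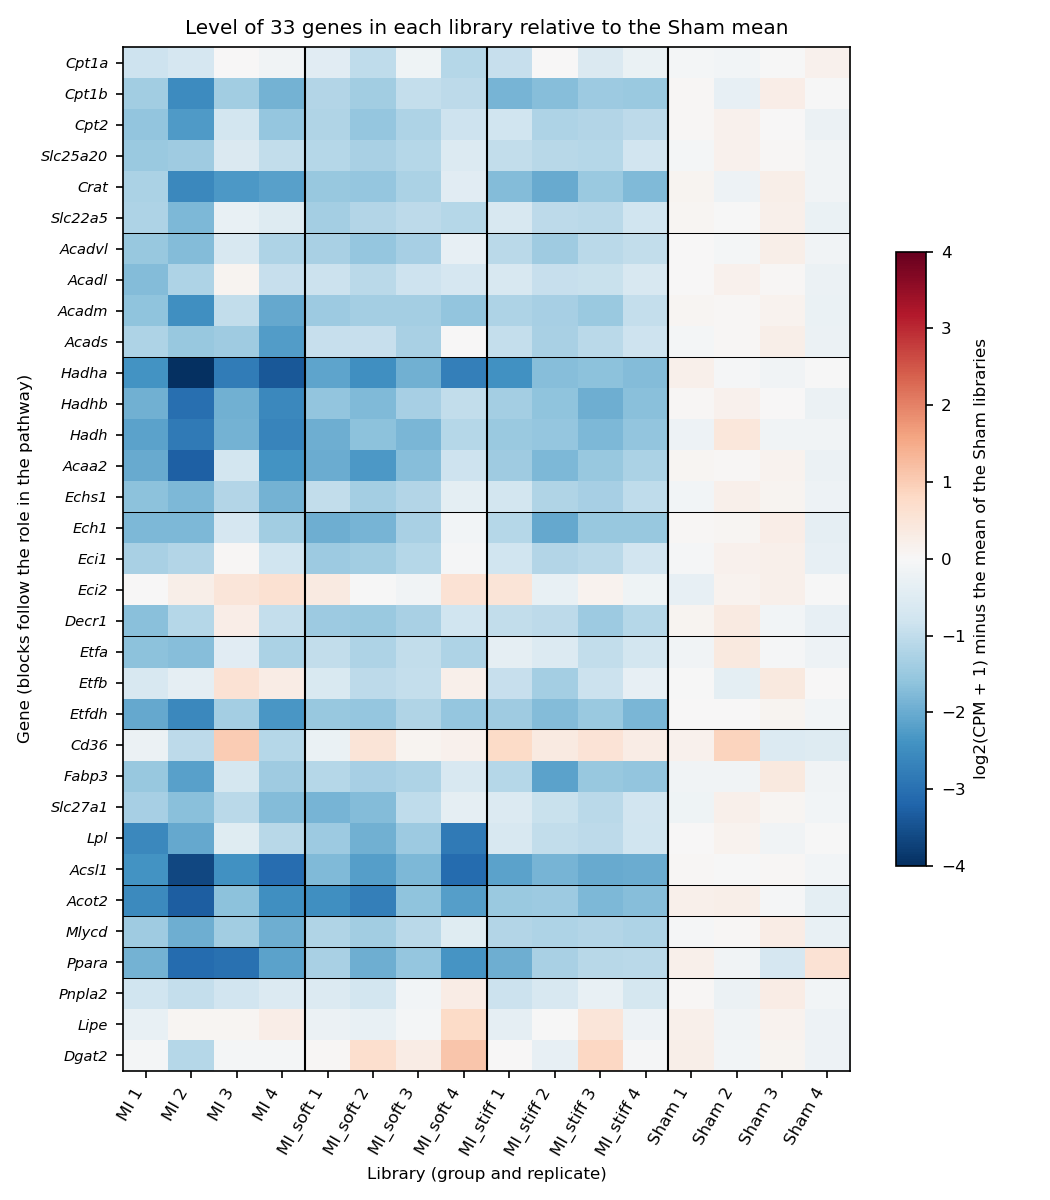
Level of the 33 genes in each library, as log2(CPM + 1) minus the mean of the 4 Sham libraries (blue lower, red higher), with MI, MI_soft, MI_stiff and Sham libraries from left to right and horizontal lines between roles. The rows of Hadha, Hadhb, Hadh, Acsl1, Acot2 and Ppara are the darkest in MI, and Eci2, Etfb, Cd36, Lipe and Dgat2 stay pale in most libraries.

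Abundance within the pathway can be compared only per transcript length. By TPM, Fabp3, the cytosolic fatty acid binding protein of heart and muscle, led in Sham with 3476 ± 957 TPM, followed by Acadl with 1071 ± 109 TPM, Hadhb with 895 ± 99.5 TPM, Lpl with 872 ± 73.9 TPM and Ech1 with 584 ± 121 TPM (mean ± SD, n = 4). The gap from Fabp3 to Acadl exceeded both SDs, while Acadl and Hadhb, and Hadhb and Lpl, differed by less than the sum of their SDs. At the low end were Ppara with 6.96 ± 3.01 TPM, Dgat2 with 6.39 ± 1.499 TPM and Cd36 with 0.917 ± 0.499 TPM. Cd36 encodes the main fatty acid translocase of heart, and its row was nearly empty, with 2.09, 0.754, 6.38 and 0.638 CPM in MI 1 to 4, 2.02, 4.18, 2.91 and 3.09 CPM in MI_soft 1 to 4, 5.13, 3.62, 4.22 and 3.43 CPM in MI_stiff 1 to 4 and 3.11, 5.68, 1.48 and 1.51 CPM in Sham 1 to 4. Its counts equalled those of the gene named RGD1565355 in every library, so the values of Cd36 are uncertain. The groups overlapped fully, with log2 changes of -0.25 ± 0.63 in MI, 0.06 ± 0.63 in MI_soft and 0.48 ± 0.63 in MI_stiff. Slc22a5, Eci2 and Pnpla2 likewise had counts identical to those of LOC303140, Eci3 and LOC100911615, and their levels cannot be assigned to a single gene.

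The carnitine shuttle fell except for its liver-type entry enzyme. Of 6 genes, 5 were called lower in each of the 3 infarct groups, beside 16.4%, 9.71% and 8.44% of all genes. Cpt1b, the muscle isoform of carnitine palmitoyltransferase 1 that commits fatty acids to oxidation, had 256, 118, 259 and 181 CPM in MI 1 to 4, 300.3, 259, 351 and 324 CPM in MI_soft 1 to 4, and 185, 207, 248 and 239.8 CPM in MI_stiff 1 to 4. Sham values of Cpt1b were 706, 543, 812 and 673 CPM. Every infarct library was below every Sham library, and the log2 changes were -1.75 ± 0.24 in MI, -1.15 ± 0.23 in MI_soft and -1.64 ± 0.23 in MI_stiff (adjusted p = 3.03e-05, 0.00157 and 0.000104). Cpt1a, the isoform dominant in liver, had 39.6, 44.9, 72.8 and 64.3 CPM in MI 1 to 4, 51.5, 35.1, 63.6 and 32.3 CPM in MI_soft 1 to 4, and 37.2, 72.1, 48.05 and 59.6 CPM in MI_stiff 1 to 4. Sham values of Cpt1a were 68.5, 66.2, 71.3 and 81.7 CPM. MI 3 and MI_stiff 2 reached the Sham range, no MI_soft library did, and the log2 changes of -0.38 ± 0.26 in MI, -0.66 ± 0.26 in MI_soft and -0.41 ± 0.26 in MI_stiff did not pass (adjusted p = 0.262, 0.0696 and 0.288). Without MI 1 or without MI_soft 3, Cpt1a was called lower in MI_soft (adjusted p = 0.0355 and 0.0281). Crat, which buffers acetyl groups as acetylcarnitine, had 331, 134, 162 and 178 CPM in MI 1 to 4, 284, 276, 336 and 584 CPM in MI_soft 1 to 4, and 242, 198, 289 and 239 CPM in MI_stiff 1 to 4. Sham values of Crat were 865, 703, 952 and 725 CPM. MI_soft 4 came closest to Sham and MI 2 was lowest, without overlap between Sham and any infarct group, and the log2 changes were -2.01 ± 0.29 in MI, -1.13 ± 0.28 in MI_soft and -1.75 ± 0.29 in MI_stiff (adjusted p = 6.41e-05, 0.00733 and 0.00038). The other members were Cpt2, the inner-membrane transferase, Slc25a20, the carnitine-acylcarnitine exchanger, and Slc22a5, the plasma-membrane carnitine transporter. Their log2 changes lay between -1.44 ± 0.26 (Cpt2) and -0.90 ± 0.28 (Slc22a5) in MI, between -1.24 ± 0.28 (Slc22a5) and -1.01 ± 0.22 (Slc25a20) in MI_soft, and between -1.05 ± 0.26 (Cpt2) and -0.93 ± 0.28 (Slc22a5) in MI_stiff. The call of Slc22a5 in MI_stiff was lost without MI_stiff 2, MI_stiff 3, Sham 1, Sham 2 or Sham 3 (adjusted p up to 0.0673 over the 16 leave-outs).

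The acyl-CoA dehydrogenases, which open each round and are named for the chain length they prefer, fell in MI in all 4 cases. Acadm (medium chain) had 171 to 476 CPM in MI, 315 to 368 CPM in MI_soft, 339 to 494 CPM in MI_stiff and 789.9 to 1039.7 CPM in Sham, with log2 changes of -1.69 ± 0.25 in MI, -1.45 ± 0.25 in MI_soft and -1.24 ± 0.25 in MI_stiff (adjusted p = 8.57e-05, 0.000448 and 0.0018). For Acadvl (very long chain) the log2 changes were -1.24 ± 0.27 in MI, -1.05 ± 0.27 in MI_soft and -1.14 ± 0.27 in MI_stiff (adjusted p = 0.00206, 0.00841 and 0.00598). Acads (short chain) changed by -1.57 ± 0.27 in MI, -0.70 ± 0.26 in MI_soft and -1.04 ± 0.26 in MI_stiff on the log2 scale, and MI_soft 4 (462 CPM) lay within the Sham range. MI_soft was not called (adjusted p = 0.0568) but was without MI 1, MI 4 or MI_soft 4 (adjusted p = 0.0429, 0.0381 and 0.00255). Acadl (long chain), the most abundant of them by TPM, had 506, 716, 1816 and 876 CPM in MI 1 to 4, 925, 797, 931 and 1054 CPM in MI_soft 1 to 4, and 1081, 889, 908 and 1071 CPM in MI_stiff 1 to 4. Sham values of Acadl were 1686, 1876, 1712 and 1434 CPM. MI 3 was inside the Sham range while the other 11 infarct libraries were below it. Its log2 changes were -0.78 ± 0.29 in MI, -0.86 ± 0.29 in MI_soft and -0.76 ± 0.29 in MI_stiff (adjusted p = 0.0417, 0.0361 and 0.0663). The MI call of Acadl was lost without MI 1, MI 2, MI 4, MI_soft 1, Sham 1, Sham 2, Sham 3 or Sham 4 (adjusted p = 0.000229 to 0.111 over the leave-outs), the MI_soft call without MI_soft 1, MI_soft 2, MI_soft 3, Sham 1, Sham 2 or Sham 3 (0.00255 to 0.0992), and MI_stiff became called without MI 1 or MI 3 (0.00771 to 0.156).

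The enzymes that complete a round included the deepest fall, that of Hadha, and all 5 were called lower in all 3 infarct groups. Hadha and Hadhb encode the alpha and beta subunits of the mitochondrial trifunctional protein, which takes long chains through the last 3 steps. In RefSeq's GRCr8 assembly, another build than the rn7 of the counts, they lie head to head on chromosome 6 with start sites 301 bases apart. Their promoter windows, each 250 bases before to 50 after the start site, share 200 bases (chr6:31907551-31907750). The windows are shown because both subunits were called lower in all 3 infarct groups, though by unlike amounts. The part of the shared stretch in these falls was not tested. Hadha is on the plus strand (chr6:31907551-31907850) and Hadhb on the minus strand (chr6:31907451-31907750). Capitals mark the match to AAGGTCA, the half-site bound by estrogen-related receptors, here read on the strand opposite to Hadhb.
Hadha: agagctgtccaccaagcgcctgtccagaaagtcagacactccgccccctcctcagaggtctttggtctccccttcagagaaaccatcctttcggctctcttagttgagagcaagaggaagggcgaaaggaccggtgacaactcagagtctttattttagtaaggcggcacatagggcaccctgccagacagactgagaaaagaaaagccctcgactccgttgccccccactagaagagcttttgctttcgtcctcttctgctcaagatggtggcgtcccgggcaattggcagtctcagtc
Hadhb: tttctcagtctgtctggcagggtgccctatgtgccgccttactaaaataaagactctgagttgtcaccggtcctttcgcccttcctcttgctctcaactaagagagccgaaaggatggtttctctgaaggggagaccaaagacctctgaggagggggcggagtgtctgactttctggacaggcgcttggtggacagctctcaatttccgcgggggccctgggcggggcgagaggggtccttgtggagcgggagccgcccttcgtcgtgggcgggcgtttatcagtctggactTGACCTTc
AAGGTCA on either strand was found in 1 of the 26 promoter windows available for listed genes, that of Hadhb, outside the stretch shared with Hadha and 42 bases past the Hadhb start site. Among all 33469 windows of the same length 4.61% held it. Its last 6 bases, AGGTCA, which lie within every such match, were found in 6 of the 26 windows (Acadvl, Echs1, Eci1, Eci2, Hadhb and Slc27a1) and in 16.2% of all windows. The direct repeat AGGTCANAGGTCA, the form bound by PPAR with its RXR partner, was in 0 of the 26 and in 0.0538% of all windows.

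Hadha had 30.7, 5.11, 23.3 and 14.9 CPM in MI 1 to 4, 37.6, 29.4, 43.5 and 24.2 CPM in MI_soft 1 to 4, and 30.3, 49.9, 52.1 and 49.2 CPM in MI_stiff 1 to 4. Sham values of Hadha were 189, 162, 152 and 163 CPM. MI 2 was lowest and MI_stiff 2, 3 and 4 were highest of the infarct libraries, yet all 12 lay far below Sham. The log2 changes were -3.17 ± 0.39 in MI, -2.30 ± 0.37 in MI_soft and -1.88 ± 0.37 in MI_stiff (adjusted p = 1.19e-05, 0.000238 and 0.00139). Hadhb had 518, 241, 514 and 326 CPM in MI 1 to 4, 656, 580.0, 780.4 and 999 CPM in MI_soft 1 to 4, and 757, 641, 509.8 and 620.4 CPM in MI_stiff 1 to 4. Sham values of Hadhb were 2040.2, 2198, 1972 and 1672 CPM. No infarct library reached the lowest Sham value; the nearest was MI_soft 4. Its log2 changes were -2.30 ± 0.26 in MI, -1.39 ± 0.25 in MI_soft and -1.64 ± 0.25 in MI_stiff (adjusted p = 4.87e-06, 0.000622 and 0.000195). The TPM ratio of Hadha to Hadhb was 0.0821 to 0.234 in MI, 0.0949 to 0.226 in MI_soft, 0.157 to 0.397 in MI_stiff and 0.283 to 0.385 in Sham. The counts behind 1 TPM of Hadha were 0.256 times those behind 1 TPM of Hadhb, so the Hadha values rest on a much shorter counted length. Hadh, the medium- and short-chain hydroxyacyl-CoA dehydrogenase, had 215, 132, 251 and 149.6 CPM in MI 1 to 4, 244, 303, 268 and 428 CPM in MI_soft 1 to 4, and 338, 319.6, 272 and 319 CPM in MI_stiff 1 to 4. Sham values of Hadh were 826, 1299.5, 865 and 858 CPM. Its groups were also separate from Sham, where Sham 2 was highest, and the log2 changes were -2.36 ± 0.25 in MI, -1.63 ± 0.24 in MI_soft and -1.62 ± 0.24 in MI_stiff (adjusted p = 2.78e-06, 0.000115 and 0.000153). Acaa2, the thiolase for medium chains, changed by -1.83 ± 0.41 in MI, -1.61 ± 0.41 in MI_soft and -1.501 ± 0.40 in MI_stiff and Echs1, the short-chain hydratase, by -1.61 ± 0.24 in MI, -0.94 ± 0.23 in MI_soft and -1.05 ± 0.23 in MI_stiff on the log2 scale. For Acaa2, MI 3 (382.5 CPM) was well above the other MI libraries (65.7 to 158 CPM).

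The auxiliary enzymes that prepare unsaturated chains were less uniform, with 1 of 4 called lower in MI and 3 of 4 in MI_soft and in MI_stiff. Among all genes 16.4%, 9.71% and 8.44% were called lower, a share that the 1 of 4 in MI does not clearly exceed. Ech1, which shifts double bonds of dienoyl-CoA, had 181, 183, 396 and 244 CPM in MI 1 to 4, 165, 174, 260.5 and 587 CPM in MI_soft 1 to 4, and 286, 153, 224 and 222 CPM in MI_stiff 1 to 4. Sham values of Ech1 were 652, 673, 765 and 493 CPM. MI_soft 4 was inside the Sham range and the other 11 infarct libraries were below it, with log2 changes of -1.36 ± 0.36 in MI, -1.12 ± 0.36 in MI_soft and -1.55 ± 0.37 in MI_stiff (adjusted p = 0.00763, 0.0295 and 0.00583). The MI_soft call was lost without MI_soft 1, MI_soft 2, MI_soft 3, Sham 1, Sham 2 or Sham 3 (adjusted p = 0.000594 to 0.0931 over the leave-outs). Eci1, a mitochondrial enoyl-CoA isomerase, had 98.7, 106, 249.8 and 139 CPM in MI 1 to 4, 86.7, 90.7, 109 and 234 CPM in MI_soft 1 to 4, and 138, 106, 113 and 142 CPM in MI_stiff 1 to 4. Sham values of Eci1 were 234, 271, 280.0 and 191 CPM. MI 3 and MI_soft 4 overlapped with Sham. Its log2 changes were -0.72 ± 0.32 in MI, -0.91 ± 0.32 in MI_soft and -0.97 ± 0.32 in MI_stiff (adjusted p = 0.0879, 0.0457 and 0.0394). In MI it became called without MI 3 or MI_soft 4 (adjusted p = 0.0106 to 0.2), in MI_soft the call was lost without MI 4, MI_soft 1, MI_soft 2, MI_soft 3, MI_stiff 1, MI_stiff 2, MI_stiff 3, Sham 1, Sham 2 or Sham 3 (0.00194 to 0.131), and in MI_stiff without MI_stiff 1, MI_stiff 2, MI_stiff 3, MI_stiff 4, Sham 1, Sham 2 or Sham 3 (0.00856 to 0.103). Decr1, the dienoyl-CoA reductase, had 64.5, 93.3, 249 and 108 CPM in MI 1 to 4, 75.3, 74.1, 83.8 and 119 CPM in MI_soft 1 to 4, and 104, 99.8, 75.3 and 92.7 CPM in MI_stiff 1 to 4. Sham values of Decr1 were 222, 264, 192 and 164 CPM. Only MI 3 reached the Sham values. The log2 changes were -0.71 ± 0.32 in MI, -1.26 ± 0.32 in MI_soft and -1.18 ± 0.32 in MI_stiff (adjusted p = 0.0866, 0.00783 and 0.0136), and without MI 3 the gene was called lower in MI (adjusted p = 0.000836), whereas the MI_stiff call was lost without Sham 2 (adjusted p = 0.0503). Eci2, a further isomerase, stood apart with 27.2, 31.8, 37.7 and 41.5 CPM in MI 1 to 4, 34.9, 26.5, 24.1 and 40.5 CPM in MI_soft 1 to 4, and 39.04, 21.5, 29.5 and 23.7 CPM in MI_stiff 1 to 4. Sham values of Eci2 were 21.3, 29.99, 30.8 and 26.2 CPM. The 4 groups overlapped, and the log2 changes of 0.35 ± 0.23 in MI, 0.22 ± 0.23 in MI_soft and 0.07 ± 0.23 in MI_stiff were not called.

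Electron transfer flavoprotein collects electrons from the dehydrogenases through its alpha (Etfa) and beta (Etfb) subunits and passes them to the dehydrogenase encoded by Etfdh. Etfdh had 111, 76.8, 178 and 91.9 CPM in MI 1 to 4, 163, 158, 202 and 158 CPM in MI_soft 1 to 4, and 173, 138, 165 and 129 CPM in MI_stiff 1 to 4. Sham values of Etfdh were 464, 464, 496 and 429 CPM. All infarct libraries were less than the lowest Sham library, and the log2 changes were -2.02 ± 0.23 in MI, -1.44 ± 0.23 in MI_soft and -1.61 ± 0.23 in MI_stiff (adjusted p = 5.76e-06, 0.000182 and 8.44e-05). Etfa changed by -1.19 ± 0.25 in MI, -1.12 ± 0.25 in MI_soft and -0.67 ± 0.25 in MI_stiff (adjusted p = 0.00166, 0.00362 and 0.0687), and MI_stiff became called without MI 1 or MI 3 (adjusted p = 0.0179 to 0.227 over the leave-outs). Etfb had 113, 139, 269.5 and 219.7 CPM in MI 1 to 4, 116, 86.5, 92.8 and 204 CPM in MI_soft 1 to 4, and 94.0, 68.7, 98.7 and 143 CPM in MI_stiff 1 to 4. Sham values of Etfb were 177, 137, 232 and 182 CPM. MI 3 was above every Sham library, MI 2, MI 4, MI_soft 4 and MI_stiff 4 lay within the Sham range, MI_stiff 2 was lowest, and the log2 changes of 0.03 ± 0.31 in MI, -0.54 ± 0.31 in MI_soft and -0.85 ± 0.32 in MI_stiff were not called (adjusted p = 0.956, 0.212 and 0.0651). Leaving out MI_soft 4 brought Etfb below the threshold in MI_soft (adjusted p = 0.0377), and leaving out MI 1, MI_soft 4 or MI_stiff 4 did so in MI_stiff (as low as 0.0285). The TPM ratio of Etfa to Etfb was 0.625 to 0.920 in MI, 0.680 to 1.79 in MI_soft, 1.38 to 3.27 in MI_stiff and 1.35 to 3.16 in Sham, so the MI libraries were below all Sham libraries.

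Of 5 uptake and activation genes 4 fell in MI, 4 in MI_soft and 3 in MI_stiff, beside 16.4%, 9.71% and 8.44% of all genes. Cd36 was called in none of these comparisons. Acsl1, the main cardiac long-chain acyl-CoA synthetase, had 237, 99.8, 232 and 151 CPM in MI 1 to 4, 371, 270.5, 358 and 149 CPM in MI_soft 1 to 4, and 286, 344, 306 and 316 CPM in MI_stiff 1 to 4. Sham values of Acsl1 were 1294, 1250.2, 1296 and 1174 CPM. The 4 Sham libraries were close together and far above every infarct library, with MI 2 and MI_soft 4 lowest. Its log2 changes were -2.80 ± 0.30 in MI, -2.13 ± 0.29 in MI_soft and -2.001 ± 0.29 in MI_stiff (adjusted p = 2.78e-06, 4.75e-05 and 0.000101). Fabp3 had 588, 379, 1035 and 637 CPM in MI 1 to 4, 767, 678, 721 and 1082 CPM in MI_soft 1 to 4, and 775, 383, 597 and 571 CPM in MI_stiff 1 to 4. Sham values of Fabp3 were 1537, 1545, 2245 and 1553 CPM. Sham 3 was highest, MI_stiff 2 and MI 2 were lowest, and no group overlapped with Sham; the log2 changes were -1.38 ± 0.29 in MI, -1.08 ± 0.28 in MI_soft and -1.56 ± 0.29 in MI_stiff (adjusted p = 0.0013, 0.0095 and 0.000852). Lpl, lipoprotein lipase, had 653, 929, 2775 and 1786 CPM in MI 1 to 4, 1428, 1018, 1424 and 551 CPM in MI_soft 1 to 4, and 2481, 1941, 1863 and 2213 CPM in MI_stiff 1 to 4. Sham values of Lpl were 3906, 4299.5, 3547 and 3811 CPM. The MI libraries were widely spread, MI_soft was lower than MI_stiff in every library, and all were below Sham. The log2 changes were -1.34 ± 0.37 in MI, -1.82 ± 0.37 in MI_soft and -0.87 ± 0.36 in MI_stiff (adjusted p = 0.00873, 0.00172 and 0.0966), and without MI 1 the MI_stiff value was called (adjusted p = 0.0365). Lpl is also made by adipocytes and macrophages: the summed TPM of 7 adipocyte markers was 807 to 1023 in MI, 451 to 734 in MI_soft, 389.7 to 839 in MI_stiff and 256 to 504 in Sham, and that of 8 macrophage markers was 315 to 1761 in MI, 1623 to 3393 in MI_soft, 492 to 2326 in MI_stiff and 95.0 to 146 in Sham. The adipocyte sum was mostly Fabp4, also made by other cells, with 523 to 992 TPM in MI, 216 to 589 TPM in MI_soft, 299 to 759 TPM in MI_stiff and 249 to 491 TPM in Sham. The other 6 adipocyte markers summed to 30.9 to 306 TPM in MI, 44.1 to 235 TPM in MI_soft, 53.3 to 90.7 TPM in MI_stiff and 7.32 to 12.8 TPM in Sham. In MI_soft minus MI the log2 changes of these 6 were above 0 (0.57 to 2.45, none called), where that of Fabp4 was -0.97. Plin1, Cidec and Retn were at 0 in all Sham libraries. The part of these cells in the Lpl values was not tested. Slc27a1, a fatty acid transport protein, changed by -1.45 ± 0.28 in MI, -1.13 ± 0.28 in MI_soft and -0.81 ± 0.28 in MI_stiff on the log2 scale (adjusted p = 0.000819, 0.00685 and 0.0449), and its MI_stiff call was lost in 10 of 16 leave-outs, without MI 4, MI_soft 3, MI_stiff 1, MI_stiff 2, MI_stiff 3, MI_stiff 4, Sham 1, Sham 2, Sham 3 or Sham 4 (adjusted p = 0.00824 to 0.127).

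**Figure D2:**
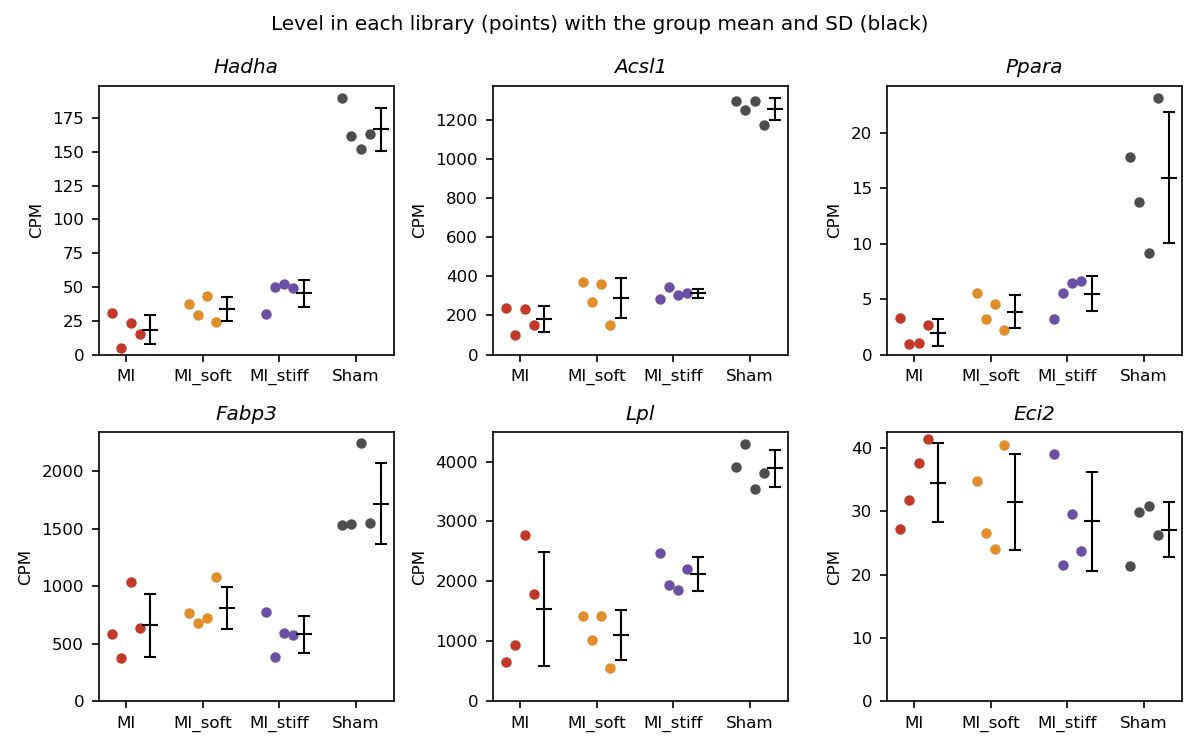
CPM of 6 genes in each library (points), with the mean and SD of the 4 libraries of each group (black), for MI, MI_soft, MI_stiff and Sham from left to right. Hadha, Acsl1, Ppara, Fabp3 and Lpl show every Sham library above every infarct library, and Eci2 shows overlapping groups.

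The regulators and side branches of the list fell as well. Ppara had 3.32, 0.922, 1.03 and 2.64 CPM in MI 1 to 4, 5.53, 3.19, 4.56 and 2.17 CPM in MI_soft 1 to 4, and 3.21, 5.55, 6.47 and 6.65 CPM in MI_stiff 1 to 4. Sham values of Ppara were 17.8, 13.8, 9.16 and 23.1 CPM. It was low in absolute terms, Sham 3 was the lowest Sham library and still above all infarct libraries, and the log2 changes were -2.99 ± 0.47 in MI, -2.04 ± 0.45 in MI_soft and -1.54 ± 0.44 in MI_stiff (adjusted p = 0.000121, 0.00279 and 0.0179). The MI_stiff call was lost without MI_stiff 1, Sham 1 or Sham 4 (adjusted p = 0.00933 to 0.0761 over the leave-outs). Acot2, a mitochondrial thioesterase that releases free fatty acid from acyl-CoA, had 50.8, 29.4, 94.6 and 53.9 CPM in MI 1 to 4, 53.8, 44.2, 96.7 and 64.7 CPM in MI_soft 1 to 4, and 106, 108, 84.9 and 90.5 CPM in MI_stiff 1 to 4. Sham values of Acot2 were 349, 352, 291 and 227 CPM. MI 2 was lowest, MI_soft 3 and MI 3 lay within the MI_stiff range, and none approached Sham. Its log2 changes were -2.41 ± 0.31 in MI, -2.23 ± 0.31 in MI_soft and -1.64 ± 0.30 in MI_stiff (adjusted p = 1.92e-05, 5.66e-05 and 0.000846). Mlycd, malonyl-CoA decarboxylase, which removes the inhibitor of CPT1, changed by -1.67 ± 0.22 in MI, -1.01 ± 0.21 in MI_soft and -1.23 ± 0.22 in MI_stiff on the log2 scale (adjusted p = 2.2e-05, 0.0022 and 0.000602).

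The lipolysis and storage genes were the least changed block. Pnpla2, adipose triglyceride lipase, fell in MI, with 143 to 192 CPM, against 238 to 344 CPM in Sham; the log2 changes were -0.77 ± 0.22 in MI, -0.24 ± 0.22 in MI_soft and -0.62 ± 0.22 in MI_stiff (adjusted p = 0.0117, 0.444 and 0.0529). Pnpla2 was called in MI_stiff without MI 1, MI_soft 2, MI_soft 4 or MI_stiff 3 (adjusted p down to 0.0213). Lipe, hormone-sensitive lipase, had 70.7, 93.7, 92.03 and 105 CPM in MI 1 to 4, 74.8, 71.8, 82.7 and 149 CPM in MI_soft 1 to 4, and 68.8, 87.8, 124 and 76.4 CPM in MI_stiff 1 to 4. Sham values of Lipe were 101, 79.7, 96.5 and 76.9 CPM. The groups overlapped, MI_soft 4 and MI_stiff 3 being highest, with log2 changes of 0.03 ± 0.25 in MI, 0.09 ± 0.24 in MI_soft and 0.01 ± 0.24 in MI_stiff. Dgat2, which makes the last step of triglyceride synthesis, had 16.1, 7.20, 15.9 and 15.9 CPM in MI 1 to 4, 17.6, 27.7, 21.1 and 38.03 CPM in MI_soft 1 to 4, and 17.1, 13.1, 31.02 and 16.3 CPM in MI_stiff 1 to 4. Sham values of Dgat2 were 19.98, 15.4, 18.2 and 14.5 CPM. MI 2 was lowest and MI_soft 4 highest, and the log2 changes of -0.30 ± 0.32 in MI, 0.61 ± 0.32 in MI_soft and 0.18 ± 0.32 in MI_stiff were not called. Of the 7 adipocyte markers given above, 5 were called higher in MI (71.4%), 5 in MI_soft (71.4%) and 1 in MI_stiff (14.3%). Among all genes 20.2%, 16.4% and 12.7% were called higher, so the MI_stiff share was near that of all genes. Of the 7 markers, 5 were at 0 in MI 3 and 4 in MI_soft 1, beside 3 to 4 in the Sham libraries. In the other MI and MI_soft libraries 0 to 2 were at 0. The part of adipocytes in the values of Lipe and Dgat2 was not tested. The 3 brown adipocyte markers with a row summed to 33.4 to 77.0 TPM in MI, 62.7 to 91.7 TPM in MI_soft, 80.5 to 117 TPM in MI_stiff and 81.2 to 148 TPM in Sham. Of these, Cidea was expressed in every group and fell in MI (32.5 ± 17.1 CPM in MI and 64.98 ± 19.2 CPM in Sham, log2 change -1.003 ± 0.34, adjusted p = 0.0299). Ucp1, the defining brown fat gene, was at 0 in all MI, MI_stiff and Sham libraries.

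**Figure D3:**
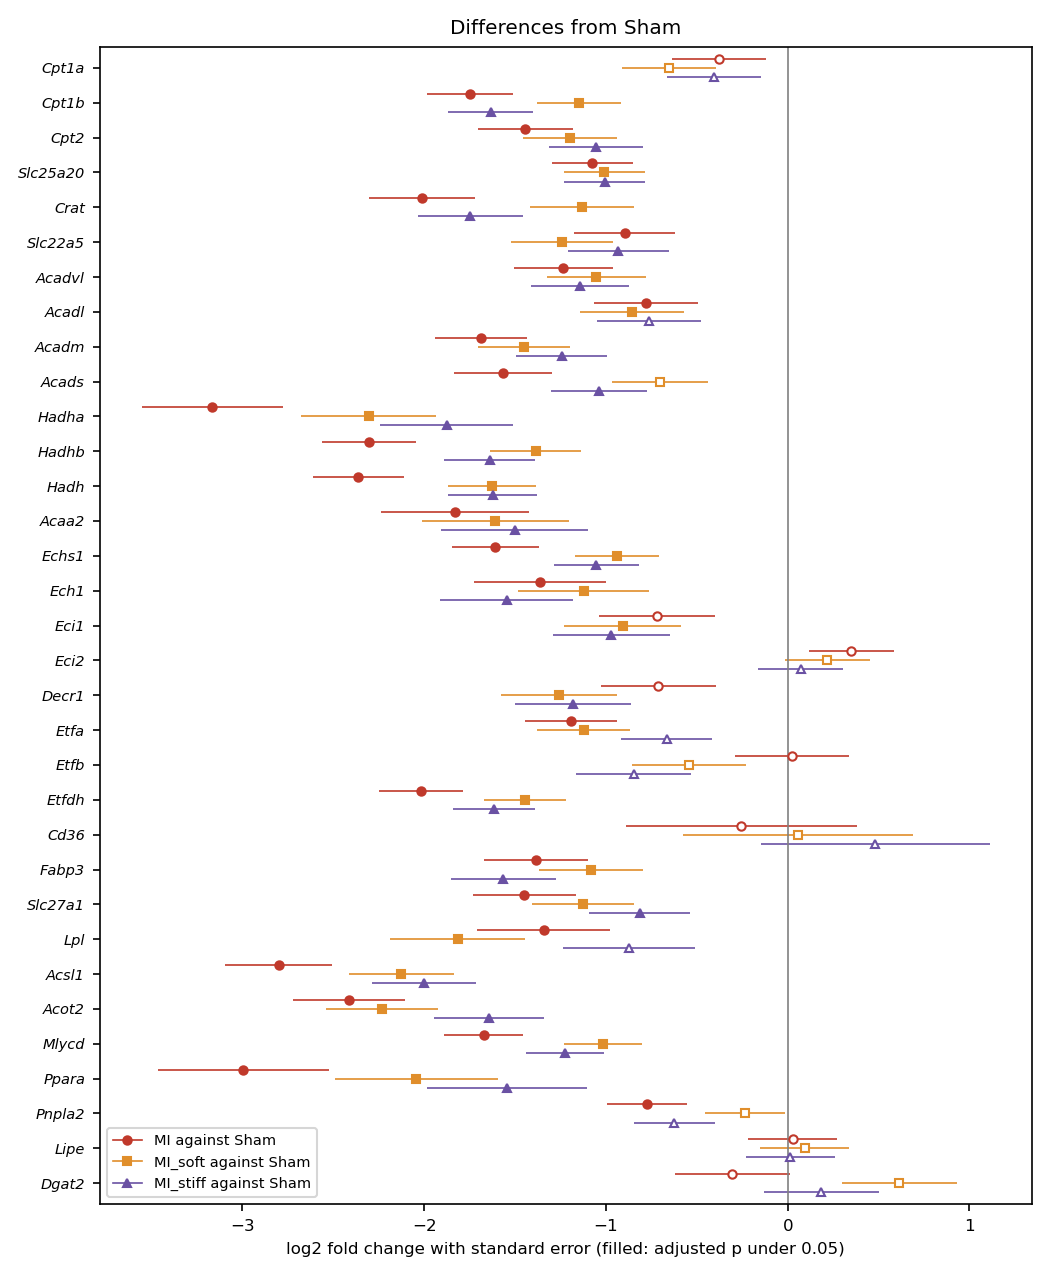
Log2 fold change with its standard error for MI (circles), MI_soft (squares) and MI_stiff (triangles), each against Sham, with filled symbols at an adjusted p under 0.05. Most symbols lie left of 0, Hadha and Ppara reach furthest in MI (-3.17 and -2.99), and Eci2 and Lipe are near 0 in all 3 comparisons.

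Setting the hydrogel groups against untreated MI asked whether the injected material changed the pathway. For MI_soft minus MI, 0 of the 33 genes were called in either direction, where 0.0264% of all genes were called lower and 0% higher. At an unadjusted p under 0.05 there were 13, 25 of the 33 log2 changes were above 0, and their median was 0.25, against 0.05 over all genes. The contractile markers had a median log2 change of 0.45 in the same comparison, with 0 of 10 called. With libraries scaled on the summed counts of those markers in place of TMM, 14 of the 33 were above 0 and the median was -0.04, against -0.28 over all genes. DESeq2 called 2 genes higher, Acads and Hadhb, and limma-voom 0. The smallest adjusted p was that of Hadhb (log2 change 0.92 ± 0.25, adjusted p = 0.129), whose 4 MI_soft libraries were all above the 4 MI libraries. Without MI 1, the library with the skeletal muscle markers, 5 genes were called higher in MI_soft: Crat (0.00752), Acads (0.0367), Hadha (0.0333), Hadhb (0.0153) and Mlycd (0.0454), the values being adjusted p. The MI libraries then left were all of low detection, and the share of all genes called without MI 1 is not given here.

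For MI_stiff minus MI, 0 of the 33 genes were called, where 0.694% of all genes were called lower and 0.492% higher. There were 9 genes at an unadjusted p under 0.05, and 24 log2 changes were above 0 with a median of 0.39, against 0.01 over all genes. The contractile markers had a median of -0.18, and with the scaling on them 27 of the 33 were above 0 and the median was 0.48, against 0.04 over all genes. The largest were those of Ppara (1.45 ± 0.45, adjusted p = 0.118) and Hadha (1.29 ± 0.36, adjusted p = 0.0875). Ppara averaged 5.47 ± 1.58 CPM in MI_stiff and 1.98 ± 1.19 CPM in MI, and Hadha 45.4 ± 10.1 CPM in MI_stiff and 18.5 ± 11.02 CPM in MI (SD, n = 4 each). In both genes the lowest MI_stiff library lay within the MI range. DESeq2 called 3 genes higher (Hadha, Hadh and Ppara) and limma-voom 0. Without MI 1, 4 genes were called higher in MI_stiff, namely Hadha (adjusted p = 0.00898), Hadhb (0.0488), Acsl1 (0.0382) and Ppara (0.0226), and Etfb was called lower (0.0437). That fit left only MI libraries of low detection, and its share of all genes called is not given here. Without MI 3 the genes called higher were Etfa (0.0376) and Acot2 (0.0456), and without MI_soft 4 it was Hadha alone (0.0462). Without the 4 libraries of low detection Lpl (log2 change 1.70, adjusted p = 0.00744) and Acadl (0.96, adjusted p = 0.0469) were called higher, against MI 1 alone.

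Between the hydrogels, MI_stiff minus MI_soft, 0 of the 33 genes were called by edgeR, DESeq2 or limma-voom, where 0.0352% of all genes were called lower and 0.0615% higher; 3 had an unadjusted p under 0.05 and the median log2 change was 0.00, against 0.01 over all genes. With the contractile scaling these medians were 0.41 and 0.36, and that of the contractile markers under TMM was -0.57. Lpl had the smallest adjusted p (0.258, log2 change 0.94 ± 0.36), with 2481, 1941, 1863 and 2213 CPM in MI_stiff 1 to 4 and 1428, 1018, 1424 and 551 CPM in MI_soft 1 to 4. These libraries did not overlap, and without the 4 libraries of low detection Lpl was called higher in MI_stiff (log2 change 0.73, adjusted p = 0.0414). Angptl4, a PPAR-responsive secreted inhibitor of lipoprotein lipase, had 49.3 ± 7.63 CPM in MI_stiff and 12.5 ± 7.23 CPM in MI_soft and was called (log2 change 1.98 ± 0.36, adjusted p = 0.0365), as was the mitochondrial uncoupling protein Ucp3 (13.5 ± 4.48 CPM in MI_stiff and 2.92 ± 0.567 CPM in MI_soft, log2 change 2.20 ± 0.28, adjusted p = 0.00273). The call of Angptl4 was lost in 10 of 16 leave-outs (adjusted p up to 0.114), and with only these 2 groups in the fit (0.0813) or with the replicate block (0.0755). A missed threshold does not show that the groups were alike.

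To set the pathway against the remaining muscle, libraries were scaled on the summed counts of the 10 contractile markers in place of TMM. This scaling moved the median log2 change of all genes to 1.39 in MI, 1.01 in MI_soft and 1.38 in MI_stiff, and that of the 33 genes to -0.09 in MI, -0.14 in MI_soft and 0.30 in MI_stiff. Relative to the contractile markers, 8 genes remained lower in MI, where 2.00% of all genes were called lower: Hadha (-1.90 ± 0.40), Ppara (-1.70 ± 0.52), Acsl1 (-1.51 ± 0.34), Acot2 (-1.15 ± 0.33), Hadh (-1.09 ± 0.24), Hadhb (-1.01 ± 0.25), Etfdh (-0.73 ± 0.25) and Crat (-0.68 ± 0.25), as log2 changes with SE. All of these but Etfdh and Crat were called in each of 16 leave-outs; Etfdh was lost without MI 4 and Crat without MI 2, MI 3, MI 4, Sham 1 or Sham 3 (adjusted p up to 0.0527 and 0.0708). Called higher were 6 genes, Eci2 (1.67 ± 0.24), Lipe (1.38 ± 0.24), Etfb (1.34 ± 0.24), Dgat2 (0.997 ± 0.28), Cpt1a (0.93 ± 0.34) and Pnpla2 (0.57 ± 0.22), where 63.4% of all genes were called higher, a background that the 6 of 33 do not exceed. MI_soft kept Hadha (-1.25 ± 0.39), Acot2 (-1.19 ± 0.33), Acsl1 (-1.05 ± 0.33) and Hadh (-0.70 ± 0.24) lower and had 4 higher, beside 0.545% and 52.2% of all genes. Hadh was lost there without MI_soft 1 or Sham 2 (adjusted p up to 0.123). MI_stiff had 0 lower and 7 higher, beside 0.158% and 68.6%, and Acsl1 was called lower without MI_soft 4 (adjusted p = 0.0187).

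These counts depend strongly on Myh6, the adult cardiac myosin heavy chain, which changed by -3.24 ± 0.43 on the log2 scale in MI. With the scaling on the other 9 markers, 16 genes were lower in MI, 12 in MI_soft and 4 in MI_stiff. Among all genes 3.7%, 1.58% and 0.448% were then called lower. With the geometric mean of the 10 markers 13, 5 and 0 were lower, beside 3.19%, 0.888% and 0.185% of all genes. All 8 genes named for MI were among the 16 and among the 13. Without the 4 libraries of low detection, which leaves MI 1 as the lone MI library, 5 were lower in MI, 4 of them among the 8. The summed TPM of the 33 genes was 2818 to 7392 in MI, 4773 to 6506 in MI_soft, 4646 to 8078 in MI_stiff and 10235 to 14343 in Sham. As a percentage of the summed contractile TPM it was 22.6 ± 5.85 in MI, 20.8 ± 3.01 in MI_soft, 29.4 ± 2.75 in MI_stiff and 30.8 ± 1.80 in Sham (mean ± SD, n = 4 each). MI 3 (31.0%) lay in the Sham range of 29.1% to 33.3%, and MI 1, MI 2 and MI 4 (19.9%, 17.7% and 21.7%) lay below it. All MI_soft libraries were below that range too, as were MI_stiff 3 and MI_stiff 4 (26.2% and 28.0%).

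**Figure D4:**
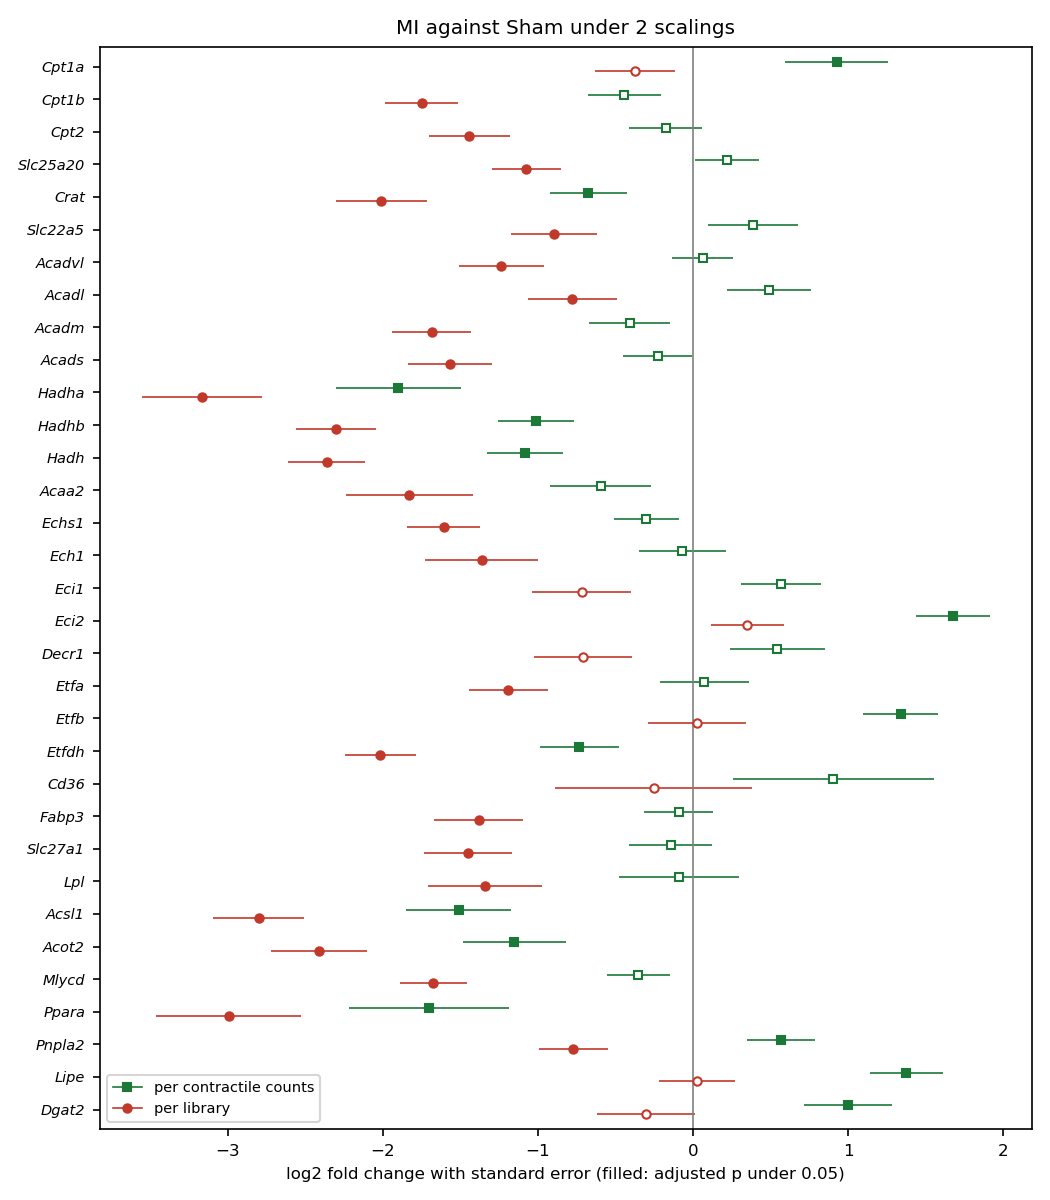
Log2 fold change of MI against Sham with its standard error, with libraries scaled per library by TMM (red circles) or on the summed counts of 10 contractile markers (green squares), filled at an adjusted p under 0.05. Hadha stays lowest under both (-3.17 and -1.90), whereas Eci2, Lipe and Etfb move from near 0 to above 1.

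The balance of the CPT1 isoforms was compared as the log2 ratio of Cpt1a to Cpt1b TPM, which does not depend on library scaling. It was -3.38, -2.19, -2.59 and -2.23 in MI 1 to 4, -3.23, -3.58, -3.15 and -4.02 in MI_soft 1 to 4, -3.03, -2.21, -3.05 and -2.69 in MI_stiff 1 to 4, and -4.05, -3.72, -4.20 and -3.73 in Sham 1 to 4. All MI and all MI_stiff libraries were above Sham, MI_soft overlapped with it, and MI 1 lay among the MI_soft values. The ratio was higher by 1.33 in MI than in Sham and by 1.18 in MI_stiff than in Sham, each with p = 0.0286 in an exact two-sided permutation test, the smallest this design allows, and adjusted p = 0.0571 over the 6 comparisons, so neither passed the correction. In MI_soft it was higher than in Sham by 0.43 (exact permutation p = 0.114, adjusted p = 0.137). Without MI_soft 4 this became 0.605 (exact permutation p = 0.0286, the smallest possible with a library left out, and not adjusted over the comparisons). MI_stiff was higher than MI_soft by 0.75 (exact permutation p = 0.0286, adjusted p = 0.0571), and MI_soft differed from MI by -0.90 (p = 0.0857, adjusted p = 0.129, exact permutation). Without MI 1 the last was -1.16 (exact permutation p = 0.0286, again the smallest possible and not adjusted). MI_stiff differed from MI by -0.15 (exact permutation p = 0.629, adjusted p = 0.629). Without the 4 libraries of low detection, so with MI 1 as the lone MI library, the Cpt1a to Cpt1b ratio was higher by 0.546 in MI than in Sham, by 0.059 in MI_soft than in MI and by 0.63 in MI_stiff than in MI. These values have no test, and the sign of the last 2 was turned. Of the 2 isoforms, the log2 change of Cpt1b in MI (-1.75 ± 0.24) was called and that of Cpt1a (-0.38 ± 0.26) was not. Fibroblasts and immune cells, whose markers were higher in the infarct groups, also express Cpt1a, and their part in the ratio was not tested.

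**Figure D5:**
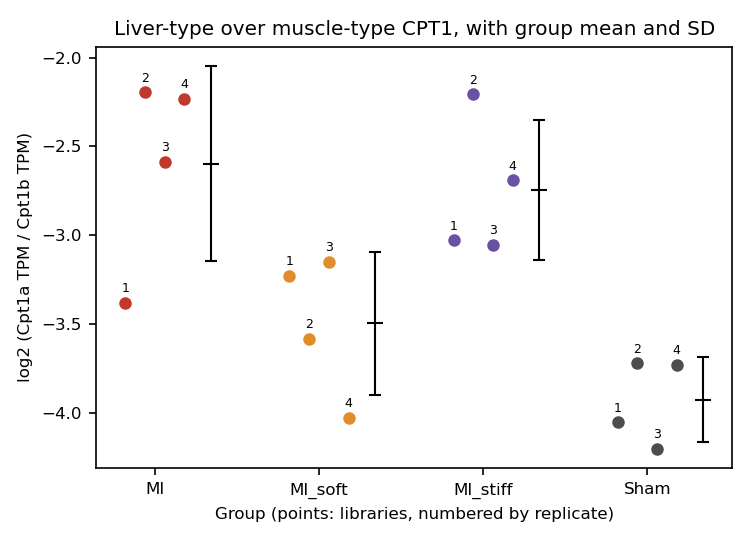
Log2 ratio of Cpt1a TPM to Cpt1b TPM in each library (points, numbered by replicate), with group mean and SD in black, for MI, MI_soft, MI_stiff and Sham from left to right. MI libraries 2 to 4 lie between -2.59 and -2.19 and MI 1 at -3.38, while the 4 Sham libraries lie between -4.20 and -3.72.

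Further genes of the pathway were read from 8 lists with 104 entries, of which 84 distinct genes were tested. Among 15 transcriptional regulators 9 fell in MI (60%, against 16.4% of all genes), 4 in MI_soft (26.7%, against 9.71%) and 5 in MI_stiff (33.3%, against 8.44%), and 0 rose. Their median log2 change was -1.46 in MI, -0.70 in MI_soft and -1.07 in MI_stiff. The largest falls in MI were those of the estrogen-related receptors Esrrg (-3.67 ± 1.01, adjusted p = 0.00932) and Esrrb (-3.62 ± 1.04, adjusted p = 0.0119) and of Ppargc1a, the coactivator PGC-1alpha (-3.29 ± 0.60, adjusted p = 0.000441). Esrrg had 7.25, 0, 0.188 and 1.91 CPM in MI 1 to 4 and 24.5 to 35.7 CPM in Sham, so MI 1 carried most of its MI mean. Without MI 1 the log2 change of Esrrg was -5.51 (adjusted p = 0.000816) and that of Esrrb -4.32 (0.00847). Without the 4 libraries of low detection, so on MI 1 alone, it was -2.07 (0.0244) for Esrrg and -2.62 (0.0874) for Esrrb, which lost its call. Ppargc1a had 1.60, 0.922, 2.53 and 1.002 CPM in MI 1 to 4, 4.03, 2.59, 3.24 and 0.251 CPM in MI_soft 1 to 4, 2.22, 1.69, 4.08 and 4.16 CPM in MI_stiff 1 to 4, and 17.2, 12.0, 10.5 and 19.7 CPM in Sham 1 to 4. No infarct library reached Sham, and its log2 changes were -2.55 ± 0.57 in MI_soft and -2.28 ± 0.56 in MI_stiff.

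Of 8 genes of the malonyl-CoA and AMPK axis, 5 fell in MI (62.5%, against 16.4% of all genes), 3 in MI_soft (37.5%, against 9.71%) and 2 in MI_stiff (25.0%, against 8.44%), and 0 rose. The median log2 change was -1.33 in MI, -0.89 in MI_soft and -0.74 in MI_stiff. Acacb, the mitochondrial acetyl-CoA carboxylase that makes the CPT1 inhibitor malonyl-CoA, led with 29.2 ± 23.8 CPM in MI and 289 ± 65.3 CPM in Sham (log2 change -3.30 ± 0.54, adjusted p = 0.000174). Without MI 1 the change of Acacb was -3.94 and on MI 1 alone, without the low-detection libraries, -2.29, called in both. Mlycd, which removes malonyl-CoA, fell in the same comparison. Of 12 peroxisomal genes 5 fell in MI (41.7%), 6 in MI_soft (50%) and 5 in MI_stiff (41.7%), against the same 16.4%, 9.71% and 8.44%, with 0 higher. Among them in MI were Phyh, phytanoyl-CoA hydroxylase (-2.12 ± 0.25, adjusted p = 8.56e-06) and Ehhadh, the peroxisomal bifunctional enzyme (-2.05 ± 0.58, adjusted p = 0.0108).

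Of 13 other uptake, binding and activation genes, 5 were lower in MI (38.5%), 4 in MI_soft (30.8%) and 4 in MI_stiff (30.8%), against 16.4%, 9.71% and 8.44% of all genes. Higher were 4 in MI (30.8%), 3 in MI_soft (23.1%) and 2 in MI_stiff (15.4%), against 20.2%, 16.4% and 12.7%, so the MI_stiff share was near that of all genes. The median log2 change was 0.27 in MI, -0.21 in MI_soft and -0.11 in MI_stiff. In MI, Acss1, the mitochondrial acetyl-CoA synthetase (-2.71 ± 0.27, adjusted p = 1.62e-06), and Got2, the mitochondrial aspartate aminotransferase that also binds fatty acids at the cell surface (-2.04 ± 0.22, adjusted p = 3.79e-06), fell, and Slc27a3, a transport-protein relative of Slc27a1, rose (2.87 ± 0.57, adjusted p = 0.000903). Of 14 other mitochondrial oxidation genes, 6 fell in MI (42.9%), 5 in MI_soft (35.7%) and 4 in MI_stiff (28.6%), against 16.4%, 9.71% and 8.44% of all genes, with median log2 changes of -0.59, -0.48 and -0.68. Those that rose were 2, 2 and 1 (14.3%, 14.3% and 7.14%), below the 20.2%, 16.4% and 12.7% of all genes. Among those that fell in MI were Acadsb, the dehydrogenase for short branched chains (-4.26 ± 1.09, adjusted p = 0.00596), Ivd, of leucine breakdown (-1.67 ± 0.21, adjusted p = 1.45e-05), and Acat1, the mitochondrial acetoacetyl-CoA thiolase (-1.40 ± 0.24, adjusted p = 0.000285). Acadsb was at -6.12 without MI 1 (adjusted p = 0.000999) and at -2.68 on MI 1 alone, without the low-detection libraries, where it was not called (adjusted p = 0.104).

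Of 13 lipid droplet and lipolysis genes 9 were lower in MI (69.2%, against 16.4% of all genes), 6 in MI_soft (46.2%, against 9.71%) and 2 in MI_stiff (15.4%, against 8.44%), with median log2 changes of -1.01, -0.84 and -0.78. Higher were 1, 1 and 0 (7.69%, 7.69% and 0%), below the 20.2%, 16.4% and 12.7% of all genes. Cidec, a droplet protein of adipocytes, was the gene that rose in MI (adjusted p = 0.0259). That call was lost without MI 2 or any 1 Sham library (adjusted p up to 0.0741) and with limma-voom (adjusted p = 0.169). Cidec had 2.63 ± 3.48 CPM in MI and was at 0 in all Sham libraries, so no fold is given. Lpin1, a phosphatidate phosphatase, had 4.14 ± 5.06 CPM in MI and 67.4 ± 13.1 CPM in Sham (log2 change -3.99 ± 0.64, adjusted p = 0.000148), and Gpam, the glycerol-phosphate acyltransferase of mitochondria, changed by -3.83 ± 0.76 (adjusted p = 0.000976). Without MI 1 these log2 changes were -5.32 for Lpin1 and -4.63 for Gpam, and on MI 1 alone, without the low-detection libraries, -2.56 and -2.72, all called. Of 7 genes of ketone body use, 5 fell in MI (71.4%), 2 in MI_soft (28.6%) and 1 in MI_stiff (14.3%), against 16.4%, 9.71% and 8.44% of all genes. Bdh1, the dehydrogenase that interconverts acetoacetate and beta-hydroxybutyrate, had 28.2 ± 19.2 CPM in MI and 100.1 ± 26.9 CPM in Sham (log2 change -1.82 ± 0.43, adjusted p = 0.00364). On MI 1 alone, without the low-detection libraries, its change was -1.18 and not called (adjusted p = 0.0872). Among 3 PPAR-responsive genes in MI, Pdk4, which blocks glucose oxidation, and Ucp3 fell (-3.16 ± 0.88 and -2.15 ± 0.28) and Angptl4 rose (1.61 ± 0.36). In MI_soft Ucp3 fell (-3.40 ± 0.29) and 0 rose, and in MI_stiff Ucp3 fell (-1.20 ± 0.27; 0.16 and not called with the contractile scaling) and Angptl4 rose (2.76 ± 0.37). Pdk4 had 11.9 ± 8.03 CPM in MI, 30.6 ± 29.8 CPM in MI_soft, 122.8 ± 37.4 CPM in MI_stiff and 106 ± 18.8 CPM in Sham, and MI_stiff was not called against Sham (log2 change 0.21 ± 0.80, adjusted p = 0.886). The MI_stiff minus MI difference of Pdk4 was 3.37 ± 0.89 (adjusted p = 0.0674) and was not called. It was called by DESeq2 (adjusted p = 0.0285), with only these 2 groups in the fit (0.0292), and without MI 1 (0.0416) or MI_soft 4 (0.00662).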

How the data were processed

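Expression was measured by bulk RNA sequencing in 16 libraries, and groups and replicate numbers came from the labels. Per the labels' protocols, mRNA was purified from column-isolated total RNA after DNase digestion and libraries were built with a NEBNext Ultra kit. The authors deposited RSEM expected counts per gene, of which 0.785% were not whole and which were rounded here, and TPM for the same genes. STAR 2.7.3a, RSEM 1.3.1 and the rn7 build are named, per the submitters' processing notes. No source names the annotation or a strand setting, so overlapping genes cannot be separated.

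Counts were filtered with edgeR's filterByExpr, scaled with TMM, which also gave the CPM, and tested with edgeR's quasi-likelihood test (edgeR 4.0.16, R 4.3.3) with robust estimation, all 16 libraries in 1 fit with 1 coefficient per group, and Benjamini-Hochberg adjustment over all tested genes. The common biological coefficient of variation was 0.403. The step was tested on simulated counts. Alternatives were DESeq2 1.42.0, limma-voom (limma 3.58.1), RLE factors, contractile-marker scaling, no mitochondrially encoded genes (13), no filter, 2 groups only, the replicate block, and libraries left out. Other forms of the contractile scaling were added after seeing the data. The Cpt1a to Cpt1b ratio used an exact two-sided permutation test. Members, lists and tests were chosen with earlier results of these data known. Values are given per library for the 8 largest called changes in MI against Sham, the members not called there, the 5 most abundant members by TPM, and Cpt1a, Cpt1b and Ppara; up to 3 genes per pathway list are named, those changing most among the called. Some genes of these lists are not reported here. Promoter windows are RefSeq's for GRCr8, found for 26 of the 34 names.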

Additional observations from a re-analysis of the deposited data

Results flagged for a closer look

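In 5 of the 132 sets of 4 libraries (33 genes in 4 groups), 1 library lay apart from the other 3, its gap to the nearest being most of the group's whole range on the log2(CPM + 1) scale (Dixon's test); chance gives about 1 in 20. For Hadha in MI_stiff 1 the share was 0.894, with 30.3 CPM against 49.2 to 52.1 CPM in the other MI_stiff libraries. Etfdh in MI_soft 3 had 202 CPM against 158 to 163 CPM in the others (0.881). Dgat2 in MI 2 had 7.20 CPM against 15.9 to 16.1 CPM (0.987). Hadh in Sham 2 had 1299.5 CPM against 826 to 865 CPM (0.898), and Fabp3 in Sham 3 had 2245 CPM against 1537 to 1553 CPM (0.974). Sham 2 also had the highest mitochondrially encoded share of counts, 50.5%, and MI 2 the fewest genes with a count, 10470; their part in these values was not tested.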

How the results depend on the processing

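Against Sham, the number of members lower stayed within 24 to 27 (MI), 24 to 27 (MI_soft) and 22 to 28 (MI_stiff) under DESeq2, limma-voom, RLE factors, no mitochondrially encoded genes, no filter, 2 groups only and without the low-detection libraries, with 0 higher; leaving out 1 library gave 24 to 27, 22 to 27 and 19 to 28. The same replicate numbers correlated by -0.285 to 0.176, so samples share only a number; with the replicate block 25 members were lower in MI. For the members and the list genes named in the text, outside the contractile scaling, 5259 single-gene values kept their call or lack of it, 82 became called, 82 lost the call and no called value changed sign. The alternatives of the named list genes were added after seeing the data, and other list genes were not run. Alternatives changed calls as follows, and the cause was not tested. Scaling on contractile markers gave 8 lower and 6 higher in MI, 4 and 4 in MI_soft, and 0 and 7 in MI_stiff, and turned the sign (log2), among genes called under either scaling, in MI for Cpt1a (0.93), Slc25a20 (0.22), Slc22a5 (0.39), Acadvl (0.061), Acadl (0.49), Etfa (0.073), Pnpla2 (0.57) and Dgat2 (0.997), in MI_soft for Acadl (0.13) and Pnpla2 (0.74), and in MI_stiff for Cpt1a (0.98), Cpt2 (0.30), Slc25a20 (0.35), Slc22a5 (0.43), Acadvl (0.21), Acadm (0.12), Acads (0.32), Echs1 (0.31), Eci1 (0.39), Decr1 (0.19), Etfa (0.70), Slc27a1 (0.55), Mlycd (0.15), Pnpla2 (0.75) and the list gene Ucp3 (0.16). A further 3 members in each group, called under neither scaling, also turned: Eci1, Decr1 and Cd36 in MI, Cpt1a, Acads and Etfb in MI_soft, and Acadl, Etfb and Lpl in MI_stiff. Of the named list genes, Esrrg, Esrrb, Ehhadh, Ivd, Acat1, Bdh1 and Pdk4 in MI and Ppargc1a in MI_soft and MI_stiff lost their calls under it without a change of sign. Between infarct groups 11 members turned in MI_soft against MI, 3 in MI_stiff against MI and 12 in MI_stiff against MI_soft, none called under either scaling. Under that scaling, leaving out Myh6 gave 16, 12 and 4 lower, beside 3.7%, 1.58% and 0.448% of all genes. It gave 3 higher in MI and 4 in MI_stiff, beside 50% and 57.2% of all genes. The geometric mean gave 13 lower in MI, beside 3.19%. Without the low-detection libraries there were 3 lower and 11 higher in MI_stiff, beside 1.09% and 78.4% of all genes. Leaving out 1 library gave 0 to 1 lower in MI_stiff. Members higher in MI_soft than in MI were 2 with DESeq2 and 0 to 5 over the leave-outs; in MI_stiff against MI, 3 with DESeq2, 2 without the low-detection libraries, and 0 to 4 higher and 0 to 1 lower over the leave-outs; in MI_stiff against MI_soft, 1 without the low-detection libraries. The Cpt1 ratio difference over the leave-outs was 1.19 to 1.59 for MI against Sham, 0.31 to 0.605 for MI_soft against Sham, -1.16 to -0.72 for MI_soft against MI and 0.57 to 0.87 for MI_stiff against MI_soft. An exact sign-flip permutation test with the replicate block could not go below p = 0.125, which it gave for MI against Sham (1.33), MI_stiff against Sham (1.18) and MI_stiff against MI_soft (0.75). Without the low-detection libraries the ratio differences were 0.55 for MI against Sham, 0.059 for MI_soft against MI (-0.90 with all libraries) and 0.63 for MI_stiff against MI (-0.15 with all libraries), on the lone library MI 1. Cd36, Ppara, Slc22a5 and Dgat2 rest on the fewest counts (means of 40.1, 87.7, 241 and 248 a library), which limits their precision.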
